A study of Mus musculus with 6 samples.

Results

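The metallothioneins Mt1, Mt2, Mt3 and Mt4 were followed in vastus lateralis, a thigh muscle, of mice that overexpress FRG1 and of wild type mice. FRG1 (FSHD region gene 1) takes its name from facioscapulohumeral muscular dystrophy, a muscle disease whose genomic region it lies in. All probes that the platform annotation assigns to these symbols were taken, which gave 4 probes for 4 genes, 1 probe each, out of 46632 probes for 17711 named genes. The labels give 3 wild type mice (Sample872, Sample906 and Sample923) and 3 FRG1 mice (Sample871, Sample873 and Sample874), all C57Bl/6J females aged 4 weeks, with 1 Illumina bead array each. They do not name the promoter, the line or the species of the transgene, nor the litters. With 1 array per mouse, a p-value here reflects the variation among these 6 muscles. Variation between animals and technical variation cannot be separated in it. The family was chosen with its values in this comparison known, so the differences between the groups are a description of Mt1 to Mt4, with no p-value, and their calls support nothing.

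Metallothioneins are small proteins rich in cysteine that bind zinc and copper and can take up cadmium. Mt1 and Mt2 are made in most tissues and are induced by metals, glucocorticoids, inflammatory cytokines and oxidative stress. In skeletal muscle they are known to rise in wasting. Mt3 is known mainly from brain and Mt4 from stratified squamous epithelium. The zinc-sensing transcription factor MTF-1 (Mtf1) activates Mt1 and Mt2 through metal response elements in their promoters.

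The 4 genes lie side by side on mouse chromosome 8 in the order Mt4, Mt3, Mt2, Mt1. Promoter windows of 3 of them are shown because they hold different numbers of metal response element cores. Each runs from 250 bases before to 50 bases after the RefSeq start, in assembly GRCm38.p6 and on the plus strand: chr8:94178839-94179138 for Mt1, chr8:94172368-94172667 for Mt2 and chr8:94152357-94152656 for Mt3. Capitals mark the cores, searched as TGCACNC and TGCGCNC on both strands and counted once per position.
Mt1: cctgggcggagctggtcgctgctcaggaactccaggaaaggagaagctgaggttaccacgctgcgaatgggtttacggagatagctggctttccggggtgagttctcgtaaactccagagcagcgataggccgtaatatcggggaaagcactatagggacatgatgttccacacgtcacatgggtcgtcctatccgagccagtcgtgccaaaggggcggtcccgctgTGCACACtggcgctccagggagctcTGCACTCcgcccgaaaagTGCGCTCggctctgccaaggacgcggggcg
Mt2: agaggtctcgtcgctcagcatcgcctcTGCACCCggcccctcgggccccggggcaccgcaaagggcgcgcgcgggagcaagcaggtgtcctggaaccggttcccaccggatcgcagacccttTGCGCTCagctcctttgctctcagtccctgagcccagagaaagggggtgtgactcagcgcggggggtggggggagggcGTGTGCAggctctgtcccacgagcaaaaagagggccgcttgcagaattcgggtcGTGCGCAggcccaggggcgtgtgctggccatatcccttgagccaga
Mt3: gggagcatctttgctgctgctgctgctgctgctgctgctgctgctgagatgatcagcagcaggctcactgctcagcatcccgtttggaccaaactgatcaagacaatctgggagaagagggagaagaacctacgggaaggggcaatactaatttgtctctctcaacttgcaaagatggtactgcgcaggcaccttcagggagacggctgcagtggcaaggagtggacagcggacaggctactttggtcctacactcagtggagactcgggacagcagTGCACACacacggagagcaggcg
The Mt1 window held 3 cores and the Mt2 window 4, against 1 each for Mt3 and Mt4. Of 32851 promoter windows of the same length, 25.7% held at least 1 core, 1.97% at least 3 and 0.517% at least 4. In Mt2 the cores began 223, 128 and 50 bases upstream of the RefSeq start and at base 5 counted from it. In Mt1 the first began 23 bases upstream of the RefSeq start and the others at bases 3 and 21 counted from it. Whether transcription in muscle begins at these RefSeq starts was not tested. The Mt2 window also held 1 match to TGACNNNGC, the core of the antioxidant response element, as did 12.4% of windows, and the other 3 windows held none. None of the 4 windows held the STAT motif TTCNNNGAA, present in 8.30% of windows, or AGAACA, a glucocorticoid receptor motif present in 19.0%. A TATAAA box was found in the Mt4 window only, and in 13.6% of all windows. These matches describe letters within the windows, and bases outside them were not searched. The windows are set by the RefSeq start alone. A motif missing from a window, such as TATAAA in Mt1, may therefore still lie in that gene's promoter.

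Mt1 gave a bright signal on every array. Its raw signal was 3378, 3100 and 2476 intensity units in wild type Sample872, Sample906 and Sample923, and 6641, 7320 and 5854 units in FRG1 Sample871, Sample873 and Sample874. The lowest FRG1 array lay above the highest wild type array, so the groups did not overlap. After background correction and quantile normalization, the log2 value of Mt1 was 11.58 ± 0.13 in wild type and 12.64 ± 0.20 in FRG1 muscle (SD, n = 3 each). The log2 difference, FRG1 minus wild type, was 1.07 ± 0.14 (SE from the limma fit), or 2.09-fold. In bulk muscle, more cells of a type and more RNA per cell cannot be told apart.

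Mt2, the close companion of Mt1 in induction, gave a dimmer probe with the same separation. Its signal was 123, 137 and 98.8 units on the wild type arrays and 287, 327 and 222 units on the FRG1 arrays, in the same order of samples. All detection p-values, which compare a probe with the array's negative controls, were at or below 0.001871. The log2 value was 6.66 ± 0.21 in wild type and 7.86 ± 0.36 in FRG1 muscle (SD, n = 3 each), a log2 difference of 1.21 ± 0.19 (SE) or 2.31-fold. Within the FRG1 group Sample874 was the lowest array for both Mt1 and Mt2, and Sample923 was the lowest wild type array for both.

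Mt3, the brain metallothionein, had the widest separation of the family. Its probe read 76.5, 73.3 and 77.3 units on the wild type arrays, with detection p-values of 0.011229, 0.012477 and 0.005614, so it was above background but only slightly. On the FRG1 arrays it read 187, 341 and 232 units. Every FRG1 array was therefore well above every wild type array, and Sample873 was highest and Sample871 lowest within the FRG1 group. The log2 value was 5.76 ± 0.24 in wild type and 7.67 ± 0.42 in FRG1 muscle (SD, n = 3 each), a log2 difference of 1.91 ± 0.21 (SE) or 3.76-fold. The ratio of the mean raw signals, which are neither background corrected nor normalized, was 3.35. What makes it differ from the fold of the fit was not tested. With a larger offset of 50 added before taking logs the log2 difference was 1.43.

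Mt4, the epithelial metallothionein, stayed near background. Its probe read 54.6, 44.8 and 41.7 units on the wild type arrays, of which only Sample872 was detected. Its detection p-value was 0.04554 there. The FRG1 arrays read 55.8, 60.5 and 61.8 units, with detection p-values of 0.027449, 0.024329 and 0.028696. The groups lay next to each other without overlap, Sample872 being close to the FRG1 values. The log2 difference was 0.34 ± 0.13 (SE), from 4.65 ± 0.20 in wild type to 4.99 ± 0.03 in FRG1 muscle (SD, n = 3 each). The probe was retained because all 3 FRG1 arrays and 1 wild type array passed the detection limit, and with an offset of 50 the difference was 0.15.

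**Figure D1:**
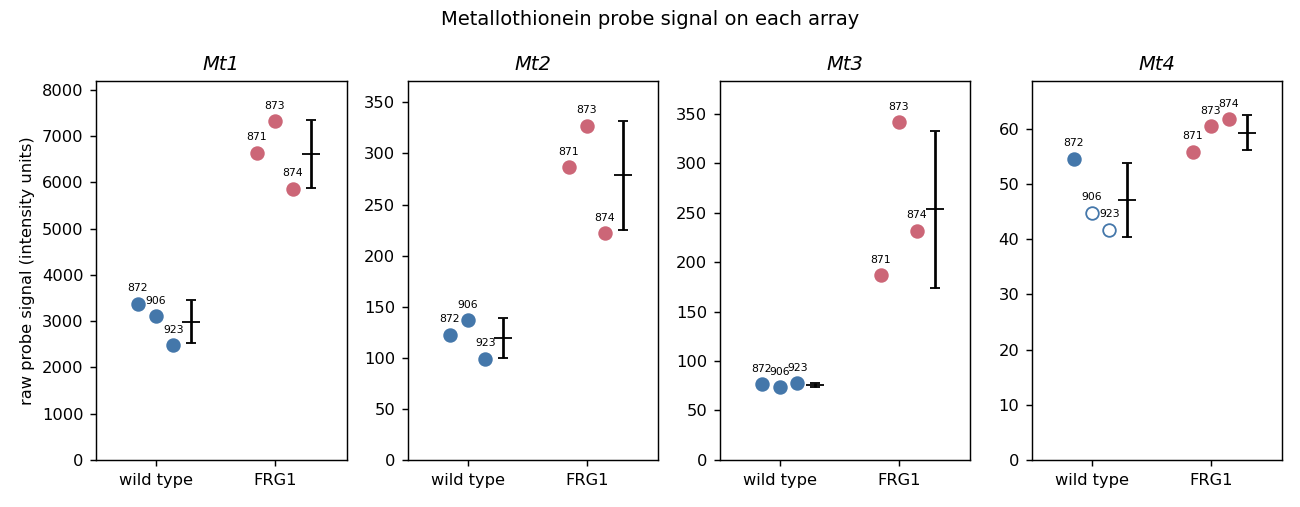
Raw probe signal in intensity units (y axis, from 0, a separate scale for each gene) on each array for Mt1, Mt2, Mt3 and Mt4, with the sample number above each point. Filled points are arrays with a detection p under 0.05, open points are not detected, and the black bar is the mean ± SD of 3 arrays; the FRG1 arrays lie above the wild type arrays for all 4 probes.

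Of the 4 probes, 3 passed the limma threshold (Benjamini-Hochberg adjusted p under 0.05) as higher in FRG1 muscle, where 7.1% of the 19563 retained probes did so, 6.71% passed as lower and 13.8% in either direction. All 4 had groups that did not overlap, with the FRG1 arrays higher, as had 16.9% of the 10287 measured genes (36.6% without regard to direction). Because the family was chosen on this comparison, nothing is read from these counts. The Mt3 difference was the 36th highest among the measured genes, that of Mt2 the 126th and that of Mt1 the 168th, while Mt4 came 1374th.

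Ratios between members were compared within each array. The log2 ratio of Mt1 to Mt2 had overlapping values in the groups, with a difference of -0.14 between the 2 changes, and its SD was 0.11 in wild type and 0.20 in FRG1 muscle. The change of Mt1 was 0.84 smaller than that of Mt3 on the log2 scale (-0.84), and the change of Mt2 was 0.70 smaller (-0.70). The ratios of Mt1 and of Mt2 to Mt3 overlapped between the groups, with an SD of 0.49 and 0.47 in FRG1 muscle. The ratios of Mt1, Mt2 and Mt3 to Mt4 did not overlap between the groups, and these changes exceeded that of Mt4 by 0.72, 0.86 and 1.57 on the log2 scale. Mt4 was detected on only 1 of 3 wild type arrays, so the ratios to it rest on values near background and mainly restate the other members' changes. None of the ratios between members was tested. Mt1 and Mt2 were highest in Sample871 on the normalized log2 scale (12.84 and 8.08), whereas Mt3 was highest in Sample873 (8.14) and lowest in Sample871 (7.34) of the FRG1 arrays.

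**Figure D2:**
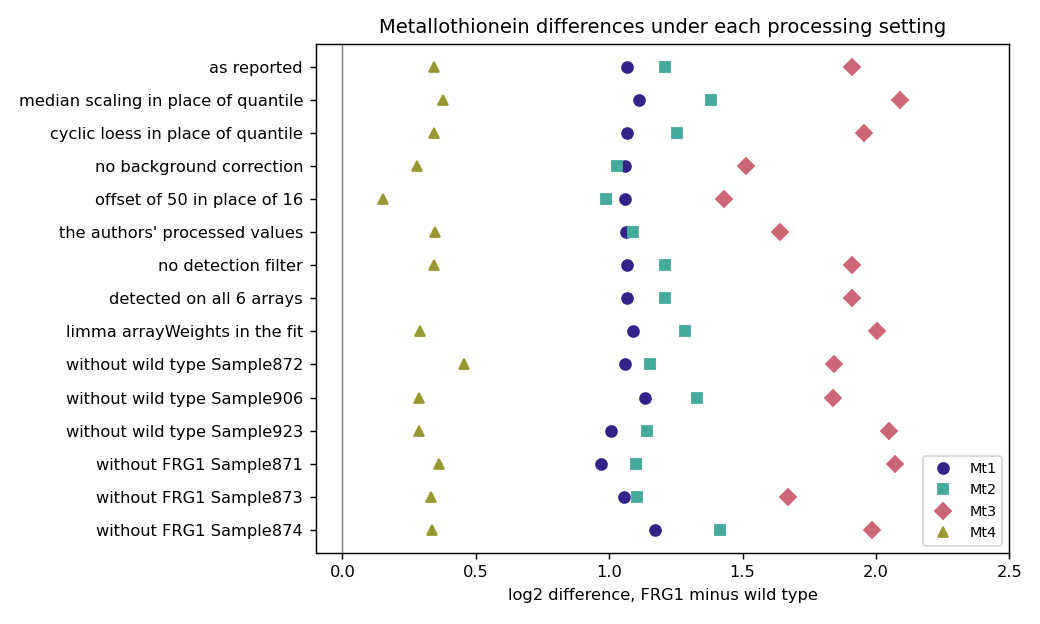
Log2 difference, FRG1 minus wild type (x axis), of Mt1, Mt2, Mt3 and Mt4 under each processing setting and with each sample left out (y axis). All values lie above 0; Mt1 stays between 0.97 and 1.17, Mt3 is the highest member in each setting, and Mt4 has no point for the filter that needs detection on all 6 arrays.

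The genes whose pattern over the 6 arrays came nearest to a member were ranked by the root mean square difference of log2 values, each gene centred on its own mean, among 10059 other genes with a standard symbol. Nearest to Mt1 were Agtpbp1, a carboxypeptidase that trims tubulin tails (0.070), Map3k7, the kinase TAK1 (0.075), Ctss, a lysosomal protease of macrophages (0.097), and Plin2, a lipid droplet coat protein (0.098). Arfgef2, Tsc22d4, Calml4 and H2-DMb1 followed, up to 0.126. Agtpbp1 was also nearest to Mt2 (0.084), followed by H2ac6 (0.102), Fam171b (0.122) and Dancr (0.143). Mt1 itself was at rank 5 for Mt2, at 0.146, and Tead4, Atf7ip and Gsta1 completed the list. Mt2 was at rank 22 for Mt1. Agtpbp1 and Gsta1 were detected on 0 of 3 wild type arrays and were retained through the FRG1 arrays, so their distances rest on wild type values at background. Agtpbp1 was higher by at least 1.91-fold on 1 of its 2 retained probes, and Gsta1 by at least 1.93-fold. Both were picked for likeness to members that are higher in FRG1 muscle, so this direction followed from the choice.

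The genes nearest to Mt3 lay farther off. They were Opn1mw, a cone opsin (0.148), Tubb6, a beta-tubulin (0.199), Cx3cl1, a chemokine that attracts monocytes (0.234), and Alox12, an arachidonate lipoxygenase (0.241), then Otub2, Trp53rkb, Lyz1 and H2-Aa, up to 0.270. Opn1mw was detected on 0 of 3 wild type arrays and retained through the FRG1 arrays, so its distance too rests on values at background. It was higher by at least 3.19-fold, a direction that followed from its choice by likeness to Mt3. Mt2 was at rank 131 and Mt1 at rank 171 for Mt3. For Mt4 the nearest genes, led by Psma7 (0.032), a proteasome subunit, and Msantd3 (0.033), were within 0.046, and none of the 8 passed the limma threshold. These distances are descriptions over 6 arrays that mainly follow the difference between the groups.

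**Figure D3:**
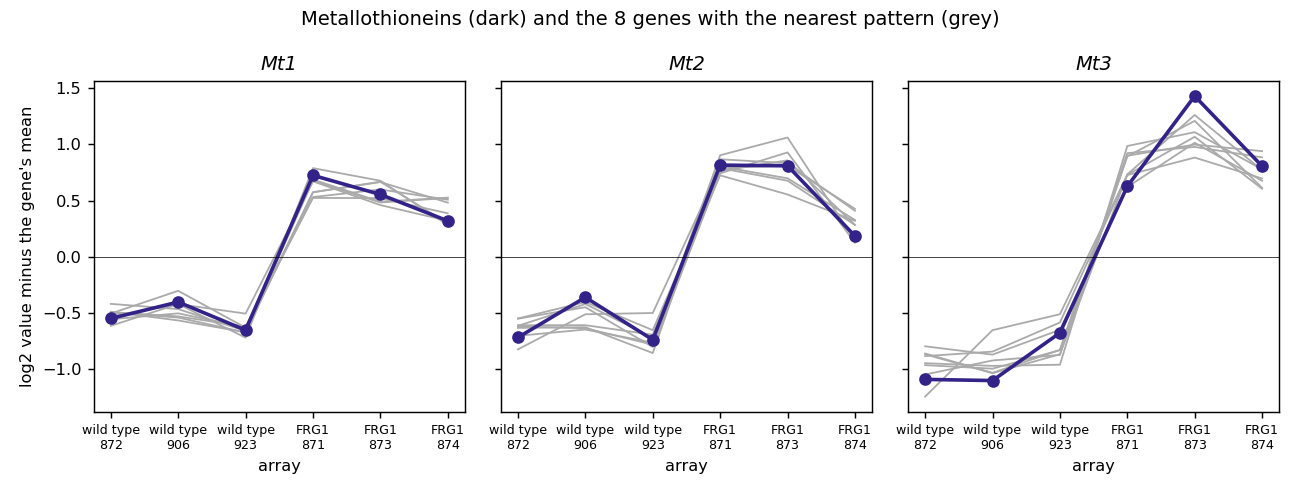
Log2 value minus the gene's own mean (y axis) on the 6 arrays (x axis) for Mt1, Mt2 and Mt3 (dark line with points) and for the 8 genes nearest to each (grey lines). Among the FRG1 arrays Mt1 and Mt2 are lowest in Sample874, whereas Mt3 is lowest in Sample871 and highest in Sample873.

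The genes beside the cluster were compared with it. Of the 6 protein-coding genes on each side, 10 had a probe and 9 were measured, and in limma 1 was higher and 2 were lower, against 7.53% higher and 7.23% lower among all measured genes, and nothing on direction is read from so few calls. The immediate neighbours were not called: Bbs2, a ciliary protein beside Mt4, had a log2 difference of 0.30 ± 0.15 (SE, adjusted p = 0.232), and Nup93, a nuclear pore protein beside Mt1, 0.03 ± 0.13 (adjusted p = 0.903). Ogfod1, a ribosomal protein hydroxylase next to Bbs2, fell by 0.76 ± 0.12 on the log2 scale (limma adjusted p = 0.00259), and Gnao1, a G protein subunit, by 0.71 ± 0.17 (adjusted p = 0.0222, a call lost under 6 of 15 alternatives). Ces5a, counted as not called on its brighter probe (0.13 ± 0.13, limma adjusted p = 0.555), gave 0.43 ± 0.12 on its dimmer one (adjusted p = 0.0353). That dimmer probe was detected on 0 of 3 wild type arrays and retained through the FRG1 arrays. Without wild type Sample872 or Sample906, or FRG1 Sample871 or Sample874, 1 neighbour was lower.

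The gene that rose was Cpne2, a calcium-dependent phospholipid-binding protein of the copine family, beyond Nlrc5. Its log2 values were 5.59, 5.25 and 5.95 in wild type Sample872, Sample906 and Sample923 and 8.71, 8.45 and 8.70 in FRG1 Sample871, Sample873 and Sample874. Its log2 difference was 3.02 ± 0.18 (SE, limma adjusted p = 1.23e-05), larger than that of any metallothionein. Between Mt1 and Cpne2, the genes Nup93, Herpud1 (-0.19 ± 0.12, adjusted p = 0.347) and Nlrc5 (-0.05 ± 0.14, adjusted p = 0.861) did not pass, and Slc12a3 was detected on 0 of the 6 arrays.

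**Figure D4:**
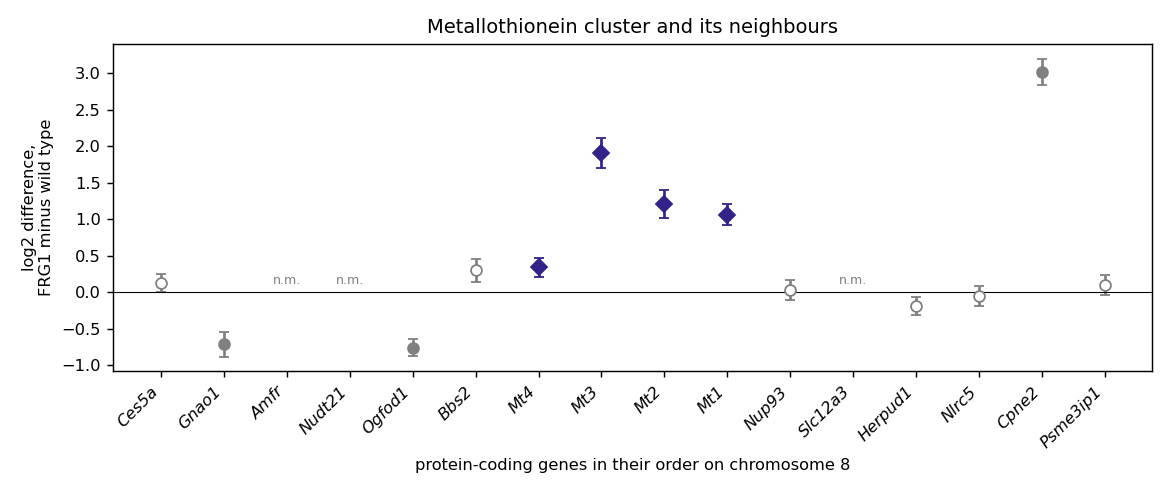
Log2 difference, FRG1 minus wild type, with its SE (y axis), of the 4 metallothioneins (dark diamonds) and the 6 protein-coding genes on each side (circles, filled where the limma adjusted p is under 0.05), in their order on chromosome 8 (x axis; n.m., not measured). Ogfod1 and Gnao1 lie below 0, the nearest neighbours Bbs2 and Nup93 are at 0.30 and 0.03, and Cpne2 is at 3.02.

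Zinc transporters move zinc across membranes, and metallothioneins bind it inside the cell. Of 25 zinc transporters and Mtf1, 17 were measured, and limma called 0 higher and 1 lower (3 and 1 at an unadjusted p under 0.05), with a median log2 difference of -0.04 against -0.03 over all measured genes. Of all measured genes 14.8% passed in either direction. Mtf1 read 5.34, 5.57 and 5.13 on the log2 scale in wild type Sample872, Sample906 and Sample923 and 5.55, 5.73 and 5.81 in FRG1 Sample871, Sample873 and Sample874. These ranges overlapped, and the difference of 0.35 ± 0.14 (SE) did not pass (limma adjusted p = 0.143).

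Slc30a1, the zinc exporter ZnT1 and a classic MTF-1 target, had 2 retained probes that disagreed. The brighter probe gave a log2 difference of 0.10 ± 0.12 (SE, limma adjusted p = 0.634) and the dimmer one 0.61 ± 0.17 (adjusted p = 0.0401). Slc30a9, a zinc transporter family member of mitochondria, fell by 0.83 ± 0.14 (adjusted p = 0.00400), a call that held for 1 of its 2 retained probes, the other at 0.26 ± 0.12 (adjusted p = 0.176). Slc30a5, a zinc transporter of the secretory pathway, gave 0.34 ± 0.12 (adjusted p = 0.0988) and Slc39a6, a zinc importer, 0.44 ± 0.16 (adjusted p = 0.105).

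In limma 7.53% of all measured genes were higher and 7.23% lower. Among 6 measured genes linked to MTF-1 other than metallothioneins, 1 was higher and 0 were lower (1 each way at an unadjusted p under 0.05). It was Gclc, the catalytic subunit of glutathione synthesis, which was detected on 0 of 3 wild type arrays and retained through the FRG1 arrays. That way of passing the filter favours a higher call, so nothing is read from it. Gclc was higher by at least 1.19-fold in FRG1 muscle (limma adjusted p = 0.0235, a call lost under 4 of 14 alternatives). A bound of this kind sets the bright group's mean against the higher, per array, of the probe's own value and the lowest signal of a detected probe. Ndrg1, a stress-responsive gene, gave -0.41 ± 0.16 (adjusted p = 0.129).

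A wider set was formed from the promoter windows. Apart from the metallothioneins, 611 genes held at least 3 cores, as Mt1 did, and 321 of them were measured. In limma 17 (5.30%) were higher and 29 (9.03%) lower, against 7.54% and 7.39% of the 8340 measured genes with a promoter window, and the median log2 difference was -0.04 against -0.03. Searching TGCACNC alone, with a minimum of 2 matches, gave 17 higher (9.19%) and 12 lower (6.49%) of 185 measured. Which direction had the larger share thus depended on the motif searched. Leaving out FRG1 Sample871 or Sample873 lowered the calls among the 321 genes to 9 higher each and to 10 and 9 lower, and without FRG1 Sample874, wild type Sample872 or wild type Sample906 there were 13, 18 and 19 lower.

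Of 14 measured copper handling genes 2 were higher and 1 lower, against 14.8% of all measured genes in either direction. Sod3, the extracellular superoxide dismutase, rose by 0.65 ± 0.12 on the log2 scale (limma adjusted p = 0.00633) and Cox19, which aids copper delivery to cytochrome oxidase, by 0.67 ± 0.14 (adjusted p = 0.0124). Cp, the copper ferroxidase ceruloplasmin, fell by 0.62 ± 0.12 (adjusted p = 0.00900). Of 13 iron handling genes 0 were higher and 2 lower in limma (2 higher and 2 lower at an unadjusted p under 0.05). Slc11a2, the divalent metal transporter DMT1, fell by 1.01 ± 0.12 on 3 of its 3 retained probes (adjusted p = 7.78e-04), and Steap3, an endosomal iron reductase, by 0.68 ± 0.15 (adjusted p = 0.0165) on 1 of 3 retained probes, a call lost under 5 of 15 alternatives. Ireb2, an iron-responsive regulator, was not called on its brighter probe (-0.12 ± 0.14, adjusted p = 0.614), while its other retained probe gave 0.75 ± 0.13 (adjusted p = 0.00467). Slc25a37, the mitochondrial iron importer mitoferrin, gave 0.49 ± 0.15 (adjusted p = 0.0635) and on its dimmer probe 0.54 ± 0.13 (adjusted p = 0.0248). These 2 genes were added after their values were seen.

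Among all measured genes 7.53% were higher and 7.23% lower in limma. Of 22 glucocorticoid responsive genes, all measured, 0 were higher and 1 lower (2 higher and 3 lower at an unadjusted p under 0.05). Their log2 differences had a median of 0.07, and 16 were above 0. Over all 10287 measured genes the median was -0.03, and 4724 were above 0. The lower gene was Tsc22d3, the leucine zipper GILZ (-0.67 ± 0.17, adjusted p = 0.0294), whose other retained probe gave 0.27 ± 0.15 and whose call was lost under 7 of 15 alternatives. Sgk1, a kinase induced by glucocorticoids, gave -0.43 ± 0.13 (adjusted p = 0.0501), and passed under 5 of 15 alternatives. Klf15, a metabolic transcription factor, gave -0.49 ± 0.16 (adjusted p = 0.0757), and Dusp1, a MAP kinase phosphatase, 0.59 ± 0.20 (adjusted p = 0.0829). The receptor gene Nr3c1 gave -0.29 ± 0.24 (adjusted p = 0.467), and of the 5 measured genes of the receptor and of steroid activation 0 passed (0 higher and 2 lower at an unadjusted p under 0.05).

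Of 21 measured genes of IL-6 and STAT3 signalling and the acute phase, 2 were higher and 3 lower in limma (6 and 3 at an unadjusted p under 0.05), with a median of 0.15. The shares over all measured genes were 7.53% higher and 7.23% lower. Serpina3n, an acute phase protease inhibitor, rose by 1.14 ± 0.22 (limma adjusted p = 0.00864), from log2 values of 6.20, 5.44 and 5.62 in wild type Sample872, Sample906 and Sample923 to 6.75, 7.28 and 6.63 in FRG1 Sample871, Sample873 and Sample874. Timp1, a metalloproteinase inhibitor, rose by 0.67 ± 0.19 (adjusted p = 0.0410, lost under 5 of 15 alternatives). Jak2, the kinase of cytokine receptors, fell by 0.65 ± 0.12 on 1 of 2 retained probes (adjusted p = 0.00573), and the cytokine signalling inhibitors Socs2 and Cish fell by 0.78 ± 0.23 (adjusted p = 0.0475, lost under 9 of 15 alternatives) and 1.30 ± 0.38 (adjusted p = 0.0498).

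Of 17 oxidative stress genes 3 were higher and 1 lower. Srxn1, which restores oxidized peroxiredoxins, rose by 0.86 ± 0.13 on 3 of its 3 retained probes (limma adjusted p = 0.00231), and Gpx1, a glutathione peroxidase, by 0.50 ± 0.11 (adjusted p = 0.0166). Gclc, also of this list and retained through the FRG1 arrays alone, is described above. The secreted peroxidase Gpx3 fell by 0.55 ± 0.15 (adjusted p = 0.0356, lost under 6 of 15 alternatives). Of 14 measured genes of muscle wasting 2 were higher and 2 lower. Cdkn1a, the cell cycle inhibitor p21, and Gadd45a, a growth arrest gene, rose by 2.89 ± 0.37 (adjusted p = 0.00102) and 0.91 ± 0.13 (adjusted p = 0.00178). Map1lc3b, an autophagosome protein, fell by 0.65 ± 0.13 and Igfbp5, an IGF binding protein, by 0.66 ± 0.13. Counting each gene once, the 9 lists held 114 measured genes, of which 9 were higher and 11 lower (17.5%), against 14.8% of all measured genes, 7.53% higher and 7.23% lower, with a median of 0.00. The lists thus held calls at a share near that of all genes. Without FRG1 Sample873 there were 5 higher and 6 lower, and without wild type Sample906 6 lower.

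**Figure D5:**
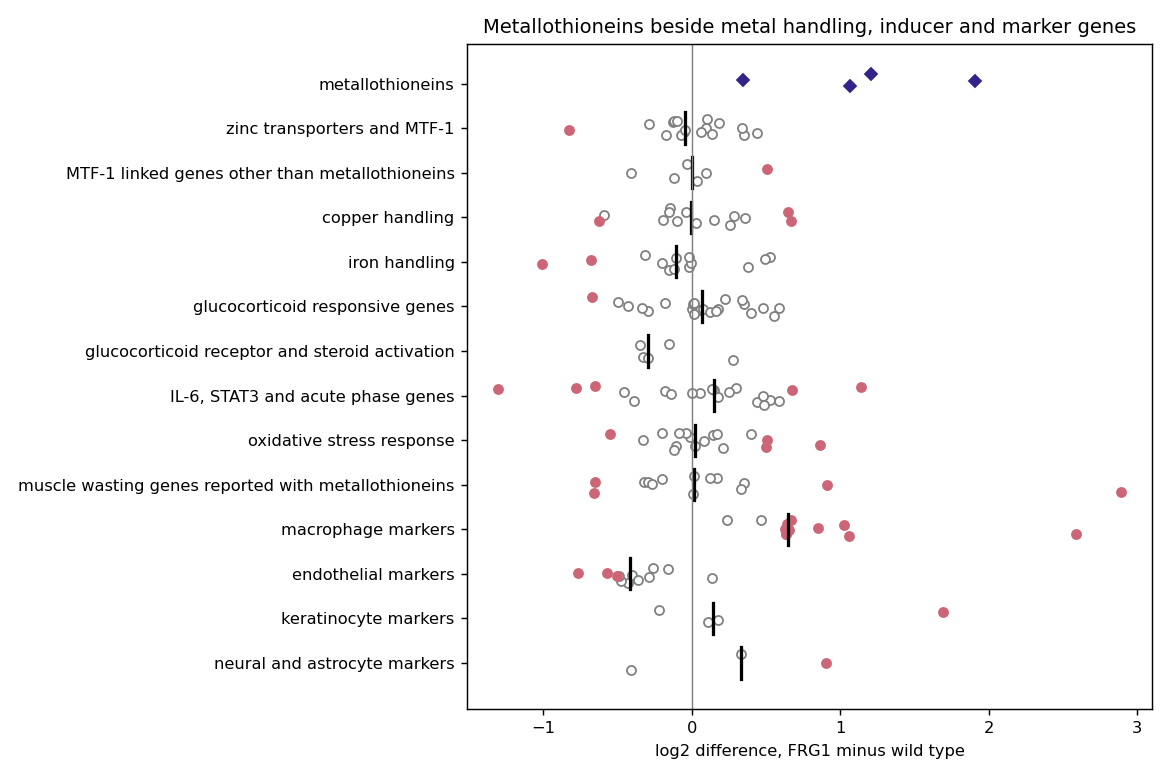
Log2 difference, FRG1 minus wild type (x axis), of the 4 metallothioneins (dark diamonds, a description) and of the measured genes of each list (circles, filled where the limma adjusted p is under 0.05; black bars are list medians). The medians of the metal handling and inducer lists lie between -0.29 and 0.15, and that of the macrophage markers is 0.65.

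Marker lists of other cell types differed in direction. Among all measured genes 7.53% were higher and 7.23% lower in limma, and nothing is read from lists with few calls. Macrophage markers had 12 measured members, of which limma called 10 higher and 0 lower (11 and 0 at an unadjusted p under 0.05), with a median of 0.65. Without FRG1 Sample873 the count was 5. Their summed normalized level was 2334 to 2623 units in wild type and 4782 to 6142 in FRG1 muscle, and Cd163, a marker of resident macrophages, was detected on 0 of the 6 arrays. Lgals3 (galectin-3) rose by 2.59 ± 0.17 and Lyz2 (lysozyme) by 1.06 ± 0.15. Their part in the metallothionein values was not tested. Of 12 endothelial markers 0 were higher and 3 lower (0 higher and 7 lower at an unadjusted p under 0.05), with a summed level of 8709 to 9502 units in wild type and 6348 to 7775 in FRG1 muscle. With median scaling, or without FRG1 Sample871, 0 were lower. Of 9 smooth muscle and pericyte markers 0 were higher and 3 lower (1 and 5 at an unadjusted p under 0.05), with Abcc9, a potassium channel subunit, at -0.92 ± 0.14 (limma adjusted p = 0.00238) and Mylk, the myosin light chain kinase, at -0.78 ± 0.13 (adjusted p = 0.00361). Without FRG1 Sample871 or Sample873 the count was 2. Of 9 fibroblast markers 1 was higher and 1 lower. Of 5 adipocyte markers 1 was higher, the lipid droplet protein Cidea (1.11 ± 0.14, adjusted p = 7.74e-04). Of 5 erythroid markers 0 passed in limma, also at an unadjusted p under 0.05, and of 5 Schwann cell markers 0 passed (0 higher and 2 lower at an unadjusted p under 0.05).

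Beside Mt3, of 9 neural and astrocyte markers 3 were measured and 1 was higher, Aqp4, a water channel also present in muscle fibres (0.91 ± 0.26, adjusted p = 0.0454, lost under 7 of 15 alternatives). Aqp4 was called on 1 of its 4 retained probes. Both probes of Gfap, the defining astrocyte filament, were detected on 0 of the 6 arrays. Beside Mt4, of 9 keratinocyte markers 4 were measured and 1 was higher, the transcription factor Trp63 (1.69 ± 0.20, adjusted p = 6.60e-04). With 7.53% of all measured genes higher, nothing is read from 1 call per list. The keratins Krt5, Krt14 and Krt1 were detected on 0 of the 6 arrays, whereas 1 probe each of Krt10 and of the desmoglein Dsg3 was detected on all 6, with log2 differences of 0.11 ± 0.16 (adjusted p = 0.693) and -0.22 ± 0.12 (adjusted p = 0.253). The summed level of the measured markers was 1063 to 2197 units in wild type and 2876 to 3326 in FRG1 muscle for the neural list, and 314 to 368 and 385 to 481 for the keratinocyte list. Without Aqp4 the neural sum was 76.4 to 99.9 units in wild type and 77.2 to 94.6 in FRG1 muscle. Without Trp63 the keratinocyte sum was 274 to 320 and 266 to 300 units. The part of these markers in the Mt3 and Mt4 values was not tested.

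The neutrophil markers, whose S100a8 and S100a9 can follow inflammation, had 4 of 9 members measured and 0 passed (1 higher and 0 lower at an unadjusted p under 0.05). S100a8 gave 2.25 ± 0.91 (limma adjusted p = 0.135), with a log2 value of 10.21 in FRG1 Sample871 and 6.01 and 5.92 in Sample873 and Sample874. Of 12 skeletal muscle fibre markers, which mark the labelled tissue, 11 were measured and limma called 2 lower, against 7.23% of all measured genes. The fast alpha-actinin Actn3 gave -0.79 ± 0.12 (adjusted p = 0.00238) and was called on 2 of its 2 retained probes. The myosin heavy chain Myh4 gave -0.45 ± 0.13 (adjusted p = 0.0446) and was called on 1 of its 2 retained probes. Arrays had summed signals of 10537335 to 13062182 intensity units and 17957 to 20000 detected probes. The Frg1 probe was detected on 0 of the 6 arrays and so checks neither the transgene nor the labels.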

How the data were processed

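RNA of 6 muscles was measured on Illumina bead arrays. The authors deposited signal intensity and a detection p-value per probe and array, not normalized per the file headers, and a table of processed intensity. Lumi is named in the submitters' processing notes, with version and settings not given in the sources used here. The processed columns kept the probe ranks of the signals, had medians of 5.07 to 5.15 and 33.7% to 33.9% of values below 0, so their scale is linear after a subtraction whose size stays unknown; they served as an alternative, as log2 after adding 32.

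Signals were background corrected and quantile normalized with neqc (limma 3.58.1, R 4.3.3; controls inferred from detection p, offset 16). Probes with detection p under 0.05 on at least 3 of 6 arrays were retained (19563), and fitted with lmFit and eBayes, group as the only term, with two-sided p-values adjusted by Benjamini-Hochberg over all of them. The fit was tested on simulated data. Symbols came from the platform annotation (29976 probes with 1 symbol, 10 with several, 16646 with none), updated through RefSeq GRCm38.p6 (29921 matched). The probe with the highest mean stood for a gene. The text names every metallothionein probe, Frg1, Mtf1, Nr3c1, Slc30a1, up to 4 members of each list by smallest p, the neighbours, and the 8 genes likest to Mt1 and to Mt2. The genes likest to Mt3 and Mt4, Cish, Ireb2, Slc25a37, the undetected keratins, Cd163 and Gfap were added after their values were seen. Promoters and motifs were searched in Python 3.11.15. The members and lists were chosen with earlier results of these data known. No label gives a batch, and sample numbers are not shared between groups. Array number limits the precision.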

Additional observations from a re-analysis of the deposited data

How the results depend on the processing

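The log2 differences of Mt1, Mt2, Mt3 and Mt4 stayed above 0 under every alternative run, from 0.97 to 1.17 for Mt1, 0.99 to 1.42 for Mt2, 1.43 to 2.09 for Mt3 and 0.15 to 0.46 for Mt4. Without background correction Mt3 was 1.51, with an offset of 50 Mt3 was 1.43 and Mt4 0.15; both settings leave or add a constant that shrinks the differences of dim probes. Median scaling moved the median log2 difference of all probes from -0.02 to 0.10 and the split of called probes from 1389 higher and 1313 lower to 1923 and 507. It also gave 7 lower genes in the 9 lists, 1 lower neighbour and 8 lower genes with metal response element cores. Without the detection filter there were 6 lower list genes and 1 lower neighbour, and with TGCACNC alone 12 lower genes with cores. Leaving out 1 sample in turn gave 748 to 1447 higher and 560 to 1249 lower probes, 5 to 10 higher and 6 to 12 lower list genes, 1 to 2 lower neighbours, and 9 to 17 higher and 9 to 25 lower genes with cores. The lowest counts of called probes came without FRG1 Sample871 (774 higher, 560 lower) and Sample873 (748 and 582), and 857 were lower without wild type Sample906. The cause of the changes with scaling, filter and left-out sample was not tested. No paired analysis was possible because the groups share no sample number. Dim probes such as Mt4 lie close to background, which limits what their differences show.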
